A study of Mus musculus with 27 samples.

Results

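The 39 genes described here mark cell division and adult neurogenesis, and they were chosen by name from the 51826 features of the gene table: genes of mitosis, genes of DNA replication, and markers of neural progenitors and immature neurons. Each name matched 1 feature, and all 39 passed the filter on low counts that left 19969 genes for testing. They were measured by RNA sequencing of hippocampi of ICR mice, an outbred stock. The 4 groups crossed surgery with treatment: ovariectomized mice given xanthohumol (OVX Xmo, n = 4), ovariectomized mice given saline (OVX saline, n = 4), sham-operated mice given xanthohumol (sham Xmo, n = 4) and sham-operated mice given saline (sham saline, n = 3). Ovariectomy removes the ovaries, the main source of oestrogen, and xanthohumol (Xmo) is a flavonoid made by hops. Dose, duration and age are not given in the sources used here, and nothing there says that the libraries came from separate animals, so each p-value measures only the spread between these samples.

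A dividing cell copies its DNA in S phase with replication proteins, then builds a spindle, attaches chromosomes to it at kinetochores, and exits mitosis when the anaphase-promoting complex marks cyclins for destruction. Most of these genes are switched on only in cycling cells, under E2F factors for replication and under the B-MYB-MuvB and FOXM1 complexes for mitosis. In the adult hippocampus, cycling cells are few: progenitors of the dentate gyrus, which pass through stages marked by Nes, Eomes, Neurod1 and Dcx on the way to granule neurons, and precursors of oligodendrocytes.

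Library totals ranged from 20848661 to 39140593 counts. The sham saline libraries differed from the others on average: genes of the mitochondrial chromosome took 13.1% to 17.8% of the counts in OVX Xmo, 12.4% to 17.5% in OVX saline and 15% to 20.6% in sham Xmo, against 20.2% to 35.4% in sham saline. On this measure sham saline 1 (20.2%) lay below sham Xmo 1 (20.6%). Neutrophil and bone marrow transcripts (11 genes) summed to at most 4.29 CPM (counts scaled to a common library total) in OVX Xmo, 1.53 in OVX saline and 7.22 in sham Xmo, against 9.11 to 149.9 in sham saline. Levels below are CPM after TMM scaling in edgeR, which sets the typical gene equal across libraries. On the deposited TPM scale the median gene itself stood 0.60 (log2) higher in OVX Xmo, 0.61 higher in OVX saline and 0.54 higher in sham Xmo than in sham saline, and 0.23, 0.22 and 0.23 higher once mitochondrial genes were left out of the total. A direction against sham saline is therefore given relative to the median gene. Hippocampal tissue was marked by 12 genes of mature dentate granule cells, whose summed level lay between 465.8 and 673.7 CPM in every library.

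Levels spread widely over the module. On the deposited TPM scale, which allows genes to be compared with each other, Pcna was the most abundant member, with a mean of 38.4 ± 7.87 TPM over the 15 libraries (SD), followed by the cyclins Ccnd2 (26.7 ± 6.25 TPM) and Ccnd1 (15.6 ± 3.21 TPM) and the neuronal factor Neurod1 (15.4 ± 2.09 TPM). D-type cyclins and Pcna are also made by cells that do not divide. The mitosis members ran lower, with Prc1 (6.13 TPM), Bub1b (2.78 TPM) and Cenpa (2.63 TPM) the most abundant of them. Mki67, the proliferation marker known as Ki-67, averaged 1.02 ± 0.290 TPM, and Bub1, a checkpoint kinase, was the lowest member at 0.209 ± 0.201 TPM. Among immature neuron markers, Dcx, a microtubule-binding protein of migrating neuroblasts, averaged 6.68 ± 0.986 TPM and Eomes, the factor of intermediate progenitors, 0.547 ± 0.301 TPM. Counts were correspondingly low for some members: Aurkb was at 0 counts in sham saline 1, Bub1 in sham saline 3 and OVX Xmo 4, and Cdk1 in OVX Xmo 2, where 3 counts would equal 0.105, 0.123, 0.112 and 0.0842 CPM in the same order.

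**Figure D1:**
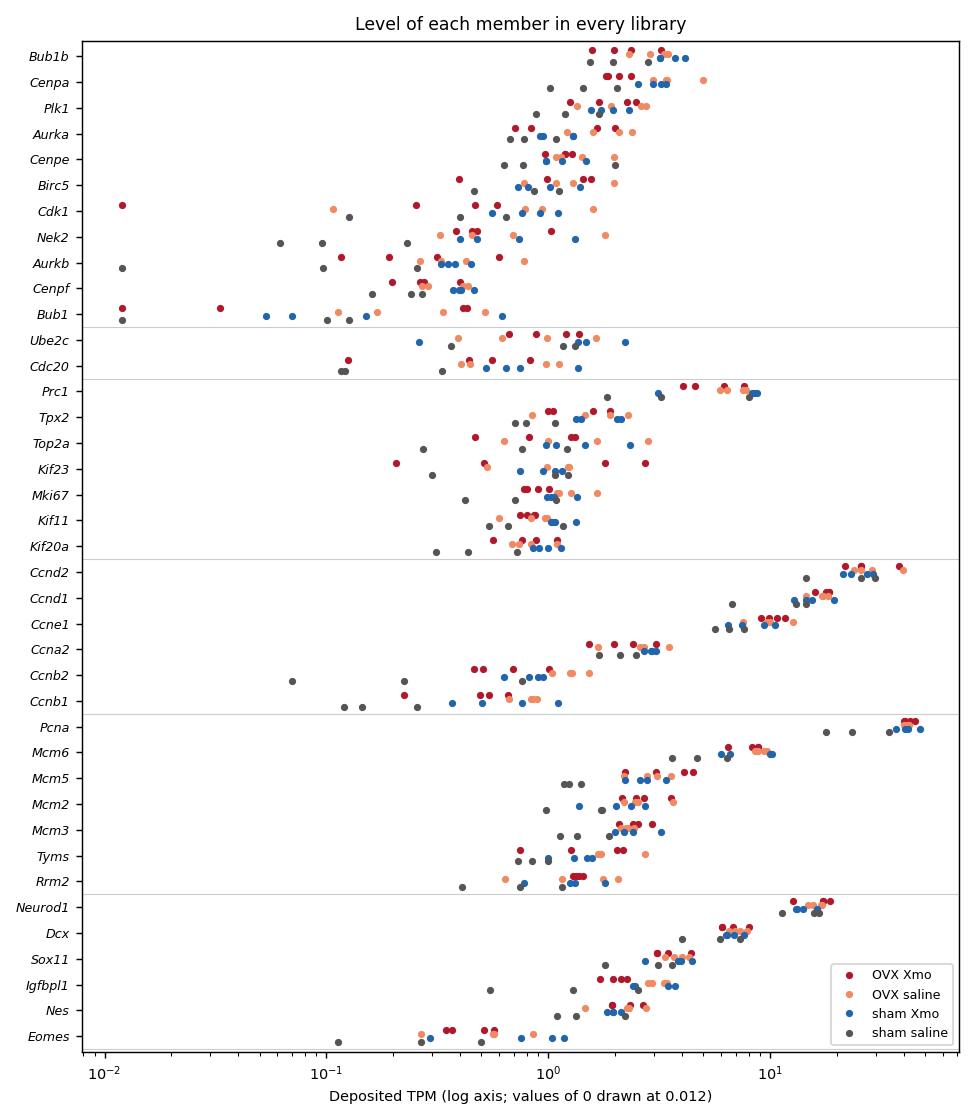
Deposited TPM of each member in every library, on a log axis, with members grouped by role and sorted by mean level; colours mark the 4 groups; values of 0 are drawn at the left edge. Pcna, Ccnd2, Ccnd1 and Neurod1 sit highest, most mitosis genes lie near or below 1 TPM on average, and the sham saline points lie to the left for many members on this scale.

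Promoters of the mitosis genes share short elements that were read here from RefSeq (GRCm38.p6, the build of the deposited coordinates, from the reference strain and not ICR). Of the 39 members, 32 had an entry, giving 34 windows of the 250 bases before a start site, and each motif was searched on both strands. The CCAAT box (letters CCAAT), bound by NF-Y, was present in 19 of the 20 windows of mitosis members, in 6 of the 7 windows of replication members and in 3 of the 6 windows of progenitor and neuron members, against 33.8% of all 32851 windows in the table. The core of the CHR element (letters TTTGAA), through which the MuvB complexes act, was present in 8 of the 20 mitosis windows, 1 of the 7 replication windows and 1 of the 6 progenitor and neuron windows, against 16% of all windows. A core of the E2F site (letters TTTNNCGC) was present in 1 of the 20 mitosis windows, 2 of the 7 replication windows and 1 of the 6 progenitor and neuron windows, against 4.28% of all windows. These motifs do not overlap in the windows printed, and a match describes the letters only. The windows of Nek2, Cenpa, Ccnb1 and Ccnb2 are shown because the comparisons below turn on these genes. Capitals mark TTTGAA and the CCAAT box, which reads as its reverse complement, ATTGG, where it lies on the other strand.

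The windows run 5′ to 3′ along the strand of each gene, and all end at the base before the RefSeq start, which for Nek2, Cenpa and Ccnb1 lies inside the span given in the deposited table and for Ccnb2 outside it. Distances are from that start to the first base of a motif.
Nek2 (chr1:191821223-191821472, plus strand): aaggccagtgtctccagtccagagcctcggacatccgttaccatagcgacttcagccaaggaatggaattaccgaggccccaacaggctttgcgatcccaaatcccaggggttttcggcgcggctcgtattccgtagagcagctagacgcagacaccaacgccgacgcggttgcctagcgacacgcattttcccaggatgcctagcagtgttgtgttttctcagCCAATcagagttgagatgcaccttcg
Cenpa (chr5:30666636-30666885, plus strand): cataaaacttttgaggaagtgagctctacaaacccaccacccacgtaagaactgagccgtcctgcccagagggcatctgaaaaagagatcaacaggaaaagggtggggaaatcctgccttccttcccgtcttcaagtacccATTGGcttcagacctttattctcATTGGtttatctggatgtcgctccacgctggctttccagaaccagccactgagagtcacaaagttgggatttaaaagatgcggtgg
Ccnb1 (chr13:100786487-100786736, minus strand): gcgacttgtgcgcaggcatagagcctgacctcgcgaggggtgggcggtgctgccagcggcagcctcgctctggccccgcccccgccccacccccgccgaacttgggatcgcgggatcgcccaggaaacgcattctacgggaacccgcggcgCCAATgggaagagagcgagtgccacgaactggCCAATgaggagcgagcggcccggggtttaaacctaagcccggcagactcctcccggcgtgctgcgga
Ccnb2 (chr9:70421555-70421804, minus strand): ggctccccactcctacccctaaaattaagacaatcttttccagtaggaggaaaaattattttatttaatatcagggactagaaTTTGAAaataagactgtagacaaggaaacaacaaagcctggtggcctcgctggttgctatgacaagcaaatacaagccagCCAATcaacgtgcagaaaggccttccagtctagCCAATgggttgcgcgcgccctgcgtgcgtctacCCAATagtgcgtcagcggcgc
Nek2 holds 1 CCAAT box, at 26 bases before the start, and Cenpa holds 2, both on the other strand, at 109 and 86 bases. Ccnb1 holds 2, at 99 and 67 bases, and Ccnb2 holds 3, at 87, 54 and 21 bases, with a TTTGAA at 167 bases.

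Nek2 was the only member that passed the test in any comparison. It encodes a centrosomal kinase that separates the centrosomes as mitosis begins, and the deposited table places it at chr1:191821444-191833050 on the plus strand. Its counts were 29, 41, 17 and 19 in OVX Xmo, 44, 17, 23 and 29 in OVX saline, 26, 53, 19 and 28 in sham Xmo, and 9, 3 and 4 in sham saline. After scaling these were 0.782, 1.15, 0.77 and 0.708 CPM in OVX Xmo, 1.1, 0.577, 0.748 and 1.18 in OVX saline, 0.88, 1.29, 0.658 and 0.693 in sham Xmo, and 0.314, 0.144 and 0.164 in sham saline. All 12 libraries from the other groups lay above the 3 sham saline libraries, with no overlap. Nek2 rose by 1.99 (log2, SE 0.42; edgeR adjusted p = 0.0363) in OVX Xmo, by 2.06 (SE 0.42; edgeR adjusted p = 0.0177) in OVX saline and by 2.04 (SE 0.41; edgeR adjusted p = 0.0293) in sham Xmo, each against sham saline. These 3 comparisons share the sham saline libraries, so they are not independent of each other. Of all genes tested, 0.746%, 3.65% and 0.721% rose in the same comparisons, and 1.19%, 6.24% and 1.51% passed in either direction. Relative to the median gene, Nek2 was also higher on the deposited TPM scale, by 1.57, 2.05 and 1.96. Between the 3 other groups its levels overlapped, with 0.853 ± 0.201 CPM in OVX Xmo, 0.901 ± 0.286 in OVX saline and 0.88 ± 0.29 in sham Xmo (SD). The counts of sham saline were low, and the call was lost in all 3 comparisons without sham saline 2 or without sham saline 3 (edgeR adjusted p = 0.0639 and 0.0674 in OVX saline, 0.0796 and 0.134 in sham Xmo, 0.168 and 0.109 in OVX Xmo). It was also lost in OVX Xmo and sham Xmo when only the groups compared entered the fit (edgeR adjusted p = 0.186 and 0.171) or with no filter on low counts (0.0643 and 0.0501). It passed in 3 of the 15 fits that left out 1 library in OVX Xmo and in 10 of 15 in sham Xmo. In sham Xmo it was also lost without sham Xmo 2, 3 or 4 (edgeR adjusted p = 0.0678, 0.0605 and 0.0587). DESeq2 called Nek2 in OVX saline and gave it no adjusted p in the other comparisons with sham saline. Both the share of mitochondrial transcripts and the neutrophil transcripts were highest on average in sham saline, where Nek2 was lowest, and their part in the level of Nek2 was not tested.

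The antisense feature Gm38037 overlaps 4.74% of the span of Nek2 and averaged 0.0828 ± 0.0247 CPM in OVX Xmo, 0.119 ± 0.0708 in OVX saline, 0.15 ± 0.0735 in sham Xmo and 0.345 ± 0.3 in sham saline (SD). No source used here says whether counting used strand, so reads of overlapping antisense genes cannot be told apart. The same holds for Prc1, which lies wholly within the antisense gene Rccd1, for Kif20a (26.8% within Cdc23), Ube2c (18.6% within Tnnc2), Ccnd1 (17.7% within Oraov1) and Ccna2 (11.8% within Exosc9). Neurod1 lies wholly within Cerkl on the same strand. Ccnb2 has an annotated processed copy, Ccnb2-ps, whose mean level of 3.48 to 4.72 CPM by group was above that of Ccnb2 itself. The values of these members are uncertain to that extent.

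**Figure D2:**
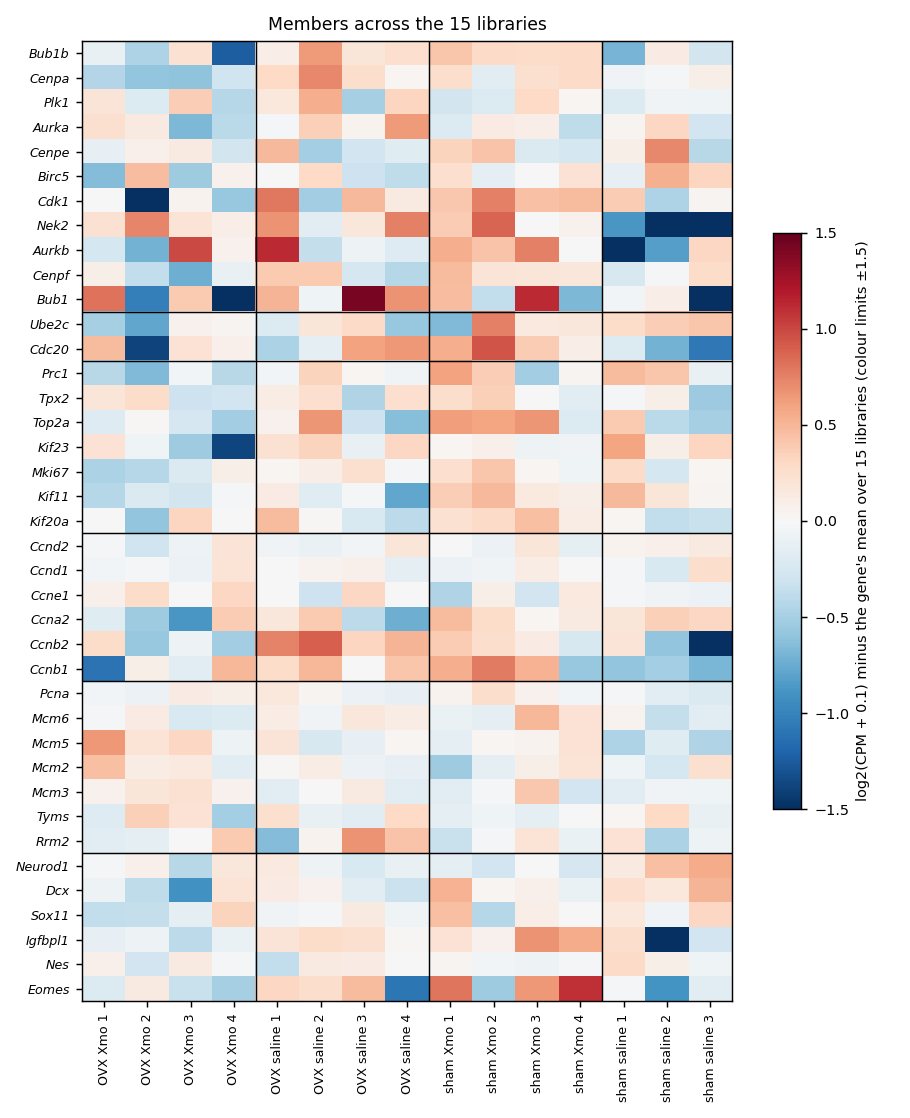
Members (rows, by role) in the 15 libraries (columns), as log2 CPM (with a small pseudocount) minus the mean of the gene; red is above and blue below it. Nek2 is lowest in the 3 sham saline columns and most mitosis genes are blue in the OVX Xmo columns.

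Xanthohumol after ovariectomy (OVX Xmo against OVX saline) moved no member past the test, and none of all genes either (percent called 0; edgeR, with 3 genes called by DESeq2). At an unadjusted p under 0.05, edgeR listed 0 members above and 3 below, against 2.03% and 2.15% of all genes. The direction was nevertheless shared: 31 of 39 members lay below 0, against 49.1% of all genes, with a median log2 fold change of -0.17 over the members and 0.003 over all genes. Of the mitosis members, the genes of kinases, kinetochores, spindle and the anaphase-promoting complex with Ccna2, Ccnb1 and Ccnb2, 22 of 23 lay below 0 with a median of -0.29. This set was not among the planned lists. Of the 6 cyclins, 4 lay below 0, and the 2 above 0 are outside the set. All these genes were read in the same libraries, so their directions are not independent of each other. Of the 6 progenitor and neuron members 5 lay below 0 as well (median -0.14), while the 7 replication members had a median of 0.02 with 4 of them above 0. In every one of the other settings tried, including both TPM scales, at least 17 of the 23 mitosis members lay below 0 and their median stayed between -0.38 and -0.27. This count across settings was added after seeing the data. The 23 genes were summed as a description of their level: 34.4 to 38.1 CPM in OVX Xmo, 41.4 to 52.7 in OVX saline, 43.2 to 54.1 in sham Xmo and 39.2 to 45.5 in sham saline. The 4 OVX Xmo libraries lay below all 11 others on this scale. A sum weighs abundant genes most. Gene by gene, 14 of the 23 lay below 0 and 9 above in OVX Xmo against sham saline, where 48.6% of all genes lay below 0. On the deposited TPM scale the sums were 23.8 to 32.1 in OVX Xmo, 32.9 to 40.9 in OVX saline, 32.9 to 40.7 in sham Xmo and 14.2 to 31.0 in sham saline, so that OVX Xmo lay below OVX saline and sham Xmo but overlapped sham saline. The summed CPM of 58 other mitosis genes, outside the 23, overlapped between all groups. It was 260.5 to 292.1 in OVX Xmo, 262.9 to 288.9 in OVX saline, 272.4 to 348.3 in sham Xmo and 272.7 to 317.8 in sham saline. Against OVX saline, markers of mature dentate granule cells, which do not divide, were below 0 in 11 of 12 cases, with a median of -0.29. They summed to 465.8 to 609.4 CPM in OVX Xmo and 584.4 to 673.7 in OVX saline. Ependymal genes lay below 0 in 9 of 10 cases (median -0.33) and microglia genes in 9 of 11 (median -0.11). Lists that went the other way included choroid plexus genes, with 11 of 11 above 0, and meningeal genes, with 9 of 9. The part of these lists in the levels of the members was not tested. In a tissue sample, fewer cells of a type and less RNA per cell cannot be told apart.

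**Figure D3:**
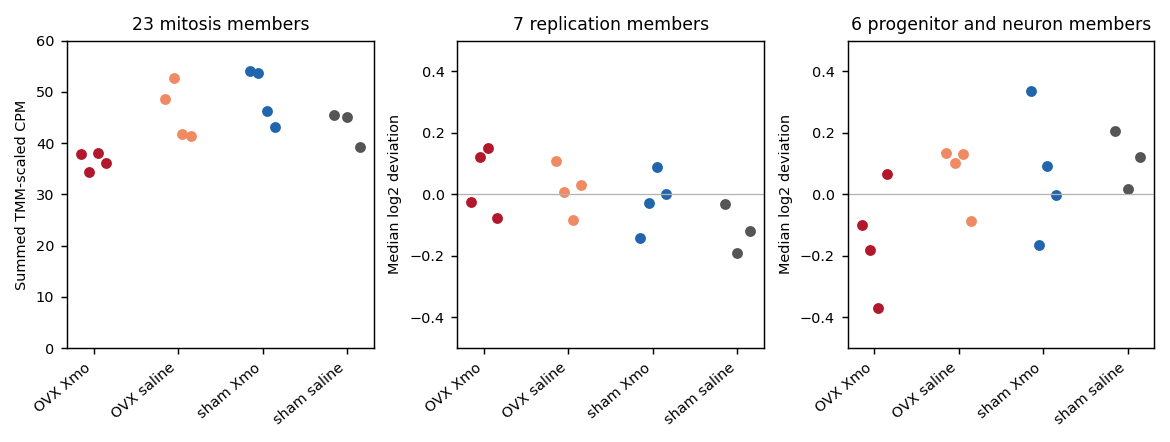
Each point is a library. The left panel gives the summed TMM-scaled CPM of the 23 mitosis members, and the other panels the median log2 deviation of the 7 replication members and of the 6 progenitor and neuron members from the mean of each gene. The mitosis sums of OVX Xmo (34.4 to 38.1 CPM) lie below all other libraries on this scale, whereas the replication medians of the 4 groups overlap. In deposited TPM, not drawn here, the mitosis sums of OVX Xmo overlap those of sham saline.

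Cenpa, the histone H3 variant that marks centromeres, had the smallest p of the members in this comparison. Its levels were 1.78, 1.6, 1.59 and 1.98 CPM in OVX Xmo, 3.05, 4.11, 2.96 and 2.52 in OVX saline, 2.98, 2.17, 2.91 and 3.02 in sham Xmo, and 2.37, 2.4 and 2.62 in sham saline. Every OVX Xmo library lay below every other library. The log2 fold change of OVX Xmo against OVX saline was -0.86 (SE 0.18), with an unadjusted p of 0.00021 and an edgeR adjusted p of 0.998, so that Cenpa did not pass. Its deposited TPM gave the same difference relative to the median gene, -0.86. Against sham saline the values depended on the scale, with -0.52 relative to the median gene in CPM and -0.16 in TPM. Members without overlap between OVX Xmo and OVX saline were 3, all lower (Cenpa, Ccnb2 and Igfbpl1), against 1.72% of all genes without overlap and lower and 1.39% without overlap and higher.

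Ccnb2, a B-type cyclin that activates Cdk1, had 0.782, 0.393, 0.589 and 0.41 CPM in OVX Xmo, 1.13, 1.26, 0.813 and 0.935 in OVX saline, 0.846, 0.779, 0.693 and 0.519 in sham Xmo, and 0.733, 0.384 and 0.123 in sham saline. All 4 OVX Xmo libraries lay below the 4 OVX saline libraries, with a log2 fold change of -0.92 (SE 0.39). Bub1b, which encodes the spindle checkpoint protein BubR1, had 3.56, 2.75, 4.53 and 1.56 CPM in OVX Xmo, 4.11, 6.04, 4.36 and 4.59 in OVX saline, 5.14, 4.7, 4.67 and 4.7 in sham Xmo, and 2.34, 4.18 and 3.16 in sham saline. The OVX Xmo libraries were spread widely and overlapped both OVX saline and sham saline (log2 fold change -0.62, SE 0.26 against OVX saline). Mki67 stood at 3.88, 4.01, 4.67 and 5.81 CPM in OVX Xmo, 5.58, 5.84, 6.44 and 5.36 in OVX saline, 6.53, 7.32, 5.58 and 5.19 in sham Xmo, and 6.67, 4.51 and 5.58 in sham saline, and 3 of the 4 OVX Xmo libraries were below all OVX saline libraries (log2 fold change -0.34, SE 0.17). Prc1, which bundles the central spindle for cytokinesis, stood at 3.45, 2.89, 4.49 and 3.43 CPM in OVX Xmo, 4.51, 5.87, 4.71 and 4.47 in OVX saline, 7.11, 6.01, 3.19 and 4.75 in sham Xmo, and 6.46, 6.19 and 4.27 in sham saline. Of its OVX Xmo libraries, 3 lay below all OVX saline libraries, and the log2 fold change was -0.46 (SE 0.23). None of these 4 passed (edgeR adjusted p = 0.998 for each).

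Other mitosis members had values in the same order without passing. Kif23, the motor of the central spindle, averaged 0.803 ± 0.38 CPM in OVX Xmo and 1.2 ± 0.175 in OVX saline (SD, n = 4 each). In deposited TPM its means ran the other way, with 1.31 ± 1.17 in OVX Xmo and 0.995 ± 0.332 in OVX saline. Ube2c also reversed on that scale, where 21 of the 23 mitosis members lay below 0. Cdk1, the kinase that drives entry into mitosis, averaged 0.286 ± 0.209 CPM in OVX Xmo and 0.559 ± 0.236 in OVX saline, and Aurka, the kinase of spindle poles, 1.11 ± 0.351 and 1.5 ± 0.344. Plk1, the polo-like kinase of mitotic entry and exit, averaged 2.18 ± 0.569 CPM in OVX Xmo and 2.45 ± 0.716 in OVX saline. With edgeR, the single mitosis member above 0 was Cenpe, a kinetochore motor, with 2.48 ± 0.33 CPM in OVX Xmo and 2.43 ± 0.825 in OVX saline. Differences were also small for Tpx2, which nucleates spindle microtubules (2.42 ± 0.534 and 2.56 ± 0.552 CPM), Birc5, the survivin subunit of the chromosomal passenger complex (0.96 ± 0.391 and 0.975 ± 0.238), and the motor Kif20a (1.53 ± 0.403 and 1.58 ± 0.463). Intervals were wide for rare transcripts: the 95% interval of the log2 fold change of Bub1 ran -2.83 to 0.80 and that of Aurkb, the passenger complex kinase, -1.69 to 1.25.

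**Figure D4:**
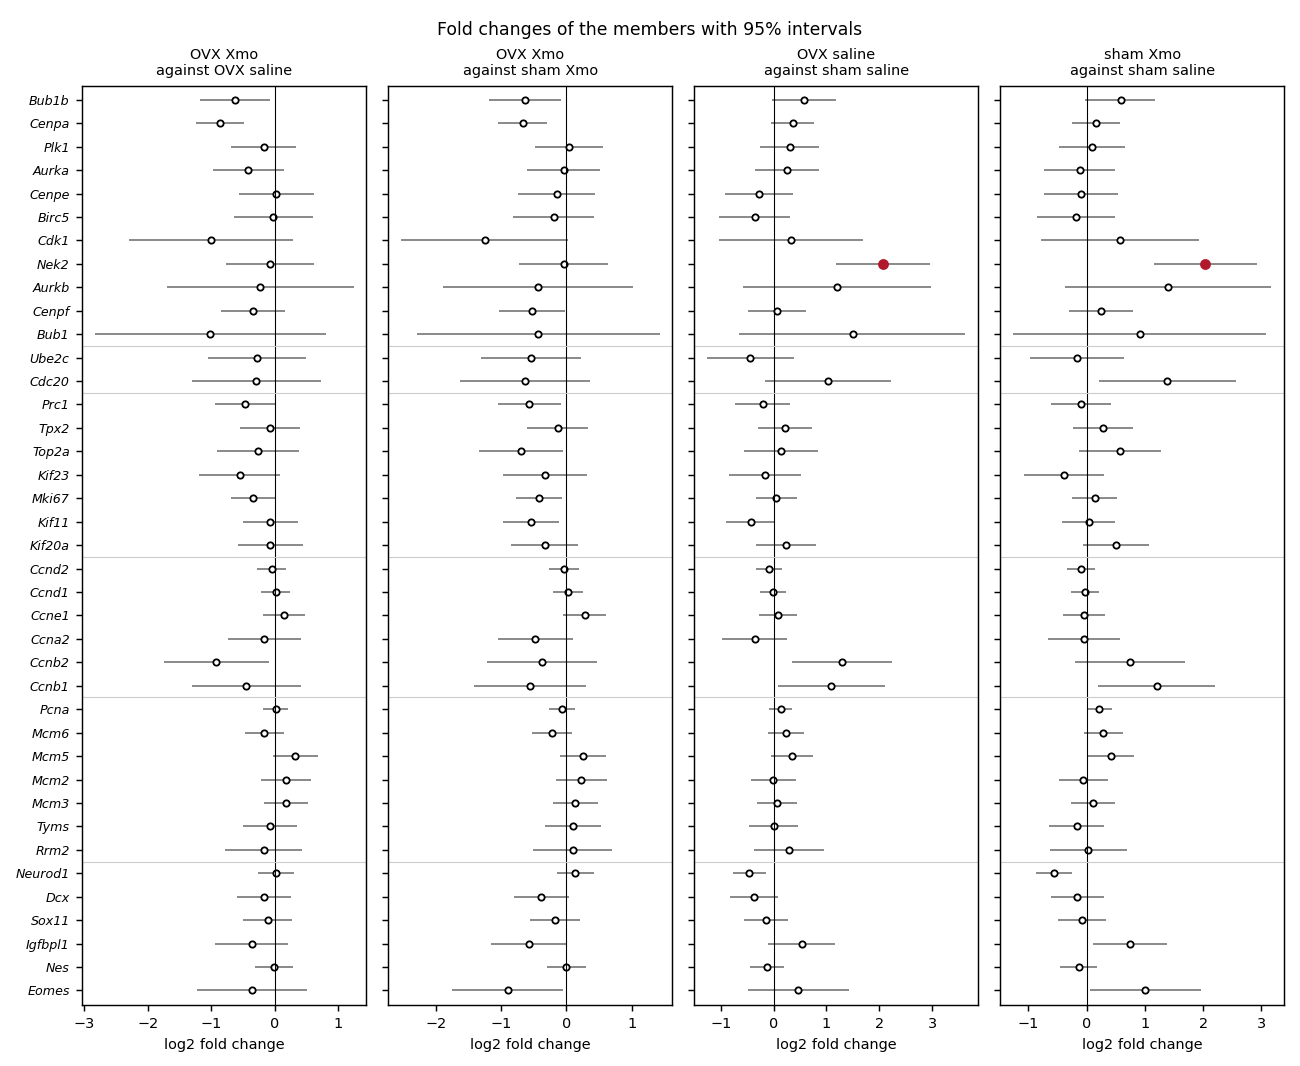
Log2 fold change of each member (point) with its 95% interval (line) from edgeR in 4 comparisons, with members in the order of the plot of TPM; the filled point marks the only call, Nek2. In the 2 panels of OVX Xmo against OVX saline and against sham Xmo, 22 of 23 mitosis members lie left of 0.

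Ovariectomy under xanthohumol (OVX Xmo against sham Xmo) likewise called no member by edgeR or DESeq2, where 0.01% of all genes passed with edgeR. At an unadjusted p under 0.05, 9 members were lower and 0 higher, against 5.36% and 4.79% of all genes. Of the 39 members, 29 lay below 0, against 52.8% of all genes, with a median of -0.33 against -0.02, and of the 23 mitosis members 22 lay below 0 with a median of -0.43. Deposited TPM gave 20 of 23 mitosis members below the median gene. Members without overlap were 6, all lower: Cdk1, Bub1b, Cenpa, Cenpf, Kif11 and Igfbpl1, against 2.99% of all genes lower and 2.89% higher without overlap. Cenpa again had the smallest p (log2 fold change -0.67, SE 0.18, edgeR adjusted p = 0.315). Kif11, the Eg5 motor that pushes spindle poles apart, had 1.78, 2.08, 1.99 and 2.38 CPM in OVX Xmo, 2.65, 2.14, 2.41 and 1.38 in OVX saline, 3.18, 3.46, 2.7 and 2.6 in sham Xmo, and 3.46, 2.79 and 2.5 in sham saline. Its OVX Xmo libraries lay below all sham Xmo and all sham saline libraries in CPM but overlapped OVX saline, with a log2 fold change of -0.54 (SE 0.20) against sham Xmo. In TPM as deposited, Kif11 in OVX Xmo (0.748 to 0.869) overlapped sham saline (0.541 to 1.17). Mki67 (-0.42, SE 0.17), Prc1 (-0.57, SE 0.23) and Bub1b (-0.63, SE 0.26) followed, with edgeR adjusted p between 0.406 and 0.423. The levels of Cenpf, a kinetochore protein, were 1.13 to 2.08 CPM in OVX Xmo and 2.2 to 2.74 in sham Xmo, and those of Top2a, the topoisomerase that untangles sister chromatids, 1.42 to 2.1 and 1.78 to 3.32. Choroid plexus transcripts (11 genes) summed to 78 to 1795 CPM in OVX Xmo and 123.3 to 8538 in sham Xmo, and ependymal transcripts (11 genes) to 28.0 to 44.7 CPM in OVX Xmo and 38.5 to 86.0 in sham Xmo. Their part in the levels of the members was not tested.

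After ovariectomy alone (OVX saline against sham saline), Nek2 was the only call among the 39 members. By p, Neurod1 came next and was lower, without passing (log2 fold change -0.46, SE 0.14, edgeR adjusted p = 0.0665). The B-type cyclins Ccnb2 and Ccnb1 followed, also without passing. Ccnb1, the partner of Cdk1 at mitotic entry, had 0.189, 0.561, 0.453 and 0.783 CPM in OVX Xmo, 0.651, 0.781, 0.52 and 0.731 in OVX saline, 0.812, 0.973, 0.796 and 0.322 in sham Xmo, and 0.314, 0.336 and 0.287 in sham saline. The 4 OVX saline libraries lay above the 3 sham saline libraries, which sat close together but held only 7 to 9 counts each (log2 fold change 1.09, SE 0.47, edgeR adjusted p = 0.169). Ccnb2 likewise showed no overlap (log2 fold change 1.29, SE 0.44, edgeR adjusted p = 0.090), and without sham saline 1, the highest sham saline library, the test called it (edgeR adjusted p = 0.033). Together with Nek2 these made 3 members without overlap and higher, and Dcx was 1 without overlap and lower, against 12.9% and 11.6% of all genes. Over all 39 members the median log2 fold change was 0.13, against 0.005 over all genes, with 24 above 0, against 50.5% of all genes. Bub1b overlapped between the groups (log2 fold change 0.57, SE 0.28, edgeR adjusted p = 0.228).

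Xanthohumol in sham mice (sham Xmo against sham saline) also called Nek2 alone. Cdc20, the activator of the anaphase-promoting complex, had 0.674, 0.112, 0.544 and 0.484 CPM in OVX Xmo, 0.30, 0.407, 0.748 and 0.772 in OVX saline, 0.711, 0.973, 0.623 and 0.495 in sham Xmo, and 0.384, 0.24 and 0.164 in sham saline. Sham Xmo lay above sham saline without overlap, yet Cdc20 did not pass (log2 fold change 1.39, SE 0.55, edgeR adjusted p = 0.197). Ube2c, the ubiquitin-conjugating enzyme that works with the same complex, had 0.431, 0.337, 0.68 and 0.671 CPM in OVX Xmo, 0.551, 0.747, 0.813 and 0.406 in OVX saline, 0.372, 1.17, 0.727 and 0.742 in sham Xmo, and 0.803, 0.864 and 0.902 in sham saline, with all groups overlapping except that OVX Xmo lay below sham saline. For Ccnb1 the groups overlapped through sham Xmo 4 (log2 fold change 1.20, SE 0.47, edgeR adjusted p = 0.187). Without overlap, 6 members were higher in sham Xmo (Nek2, Cdk1, Bub1b, Cdc20, Kif20a and Mcm5) and 2 were lower (Kif23 and Neurod1), against 8.89% and 5.33% of all genes. Members had a median of 0.11, against 0.03 for all genes, and 23 of 39 lay above 0, against 53.4% of all genes. On the deposited TPM scale, 24 of 39 lay above the median gene.

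Ovariectomized mice given xanthohumol were also set against sham mice given saline (OVX Xmo against sham saline), where Nek2 was the only call and 21 of 39 members lay below 0, against 48.6% of all genes. Of the 23 mitosis members, 14 lay below 0 and 9 above. Without overlap in CPM, 4 members were higher in OVX Xmo (Nek2, Ccne1, Mcm3 and Mcm5) and 3 lower (Cenpa, Ube2c and Kif11), against 8.59% and 6.28% of all genes. In TPM as deposited, Cenpa, Ube2c and Kif11 overlapped between these groups. Mcm5, a subunit of the replicative helicase, had 6.15, 4.49, 4.85 and 3.69 CPM in OVX Xmo, 4.46, 3.29, 3.58 and 3.98 in OVX saline, 3.52, 3.99, 4.05 and 4.53 in sham Xmo, and 2.79, 3.41 and 2.83 in sham saline. The OVX Xmo libraries lay above the sham saline libraries, with a log2 fold change of 0.68 (SE 0.18) that did not pass with edgeR (adjusted p = 0.0751) and passed with DESeq2 (adjusted p = 0.0251). Prc1 (-0.67, SE 0.24, edgeR adjusted p = 0.158) and Cenpa (-0.51, SE 0.19, edgeR adjusted p = 0.173) had negative log2 fold changes that did not pass, and both had positive values in deposited TPM before the shift of the median gene was taken off.

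**Figure D5:**
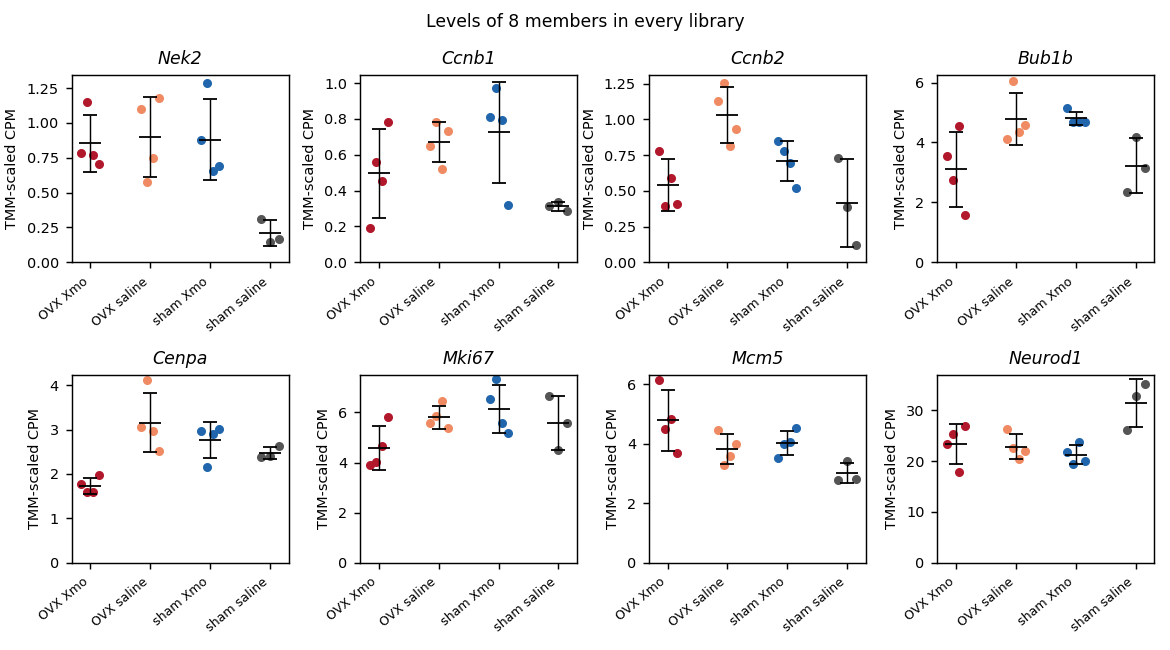
TMM-scaled CPM of 8 members in every library (points), with the group mean and SD (bars). Nek2 is lowest in the 3 sham saline libraries (0.144 to 0.314 CPM), Cenpa is lowest in the 4 OVX Xmo libraries (1.59 to 1.98 CPM), and Neurod1 is highest on average in sham saline.

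The interaction asks whether xanthohumol acted differently after ovariectomy and after sham surgery, taken as the difference OVX Xmo minus OVX saline less the difference sham Xmo minus sham saline. It called 0.416% of all genes and no member with edgeR, while 1 member above 0 and 8 below had an unadjusted p under 0.05, against 7.7% and 9.68% of all genes, and DESeq2 called Cenpa and Bub1b. Of the 39 members, 29 lay below 0, against 52.3% of all genes, with a median of -0.27 against -0.02. Mitosis members made up most of these, with 21 of 23 below 0 and a median of -0.57. Nek2 had the smallest p of the members (log2 difference -2.11, SE 0.53, edgeR adjusted p = 0.0776). For Cenpa the log2 difference was -1.03 (SE 0.26), with an edgeR adjusted p of 0.082 and a DESeq2 adjusted p of 0.0283, and for Bub1b -1.21 (SE 0.38), with 0.136 by edgeR and 0.0428 by DESeq2. Bub1b averaged 3.1 ± 1.26 CPM in OVX Xmo, 4.77 ± 0.869 in OVX saline, 4.8 ± 0.228 in sham Xmo and 3.23 ± 0.921 in sham saline, so that OVX saline and sham Xmo averaged above the other groups. Neurod1 (0.59, SE 0.20, edgeR adjusted p = 0.146) and Ccnb2 (-1.66, SE 0.59, edgeR adjusted p = 0.173) did not pass. The sham saline libraries enter this difference too, so the values given above for them bear on it.

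None of the 7 replication members passed with edgeR in any comparison. Pcna, the sliding clamp of DNA polymerases, had 30.8, 29.7, 34.3 and 33.5 CPM in OVX Xmo, 35.4, 32.4, 29.8 and 28.9 in OVX saline, 32.8, 37.9, 32.9 and 30.8 in sham Xmo, and 31.0, 28.4 and 27.2 in sham saline. The helicase subunits Mcm2, Mcm3 and Mcm6 averaged 4.32 ± 0.771, 3.1 ± 0.186 and 14.1 ± 1.64 CPM in OVX Xmo, and 3.81 ± 0.287, 2.72 ± 0.289 and 15.8 ± 1.03 in OVX saline. In sham Xmo they averaged 3.69 ± 0.803, 2.82 ± 0.645 and 16.4 ± 3.55, and in sham saline 3.84 ± 0.699, 2.61 ± 0.116 and 13.4 ± 1.92. Of the enzymes that supply nucleotides, Rrm2, the regulated subunit of ribonucleotide reductase, ranged over 1.16 to 1.75 CPM in OVX Xmo, 0.801 to 2.15 in OVX saline, 1.01 to 1.52 in sham Xmo and 0.912 to 1.54 in sham saline, and Tyms, which makes thymidylate, over 1.6 to 3.0, 2.05 to 2.88, 2.08 to 2.33 and 2.13 to 2.88 in the same order. Among cyclins that act before mitosis, Ccnd2 was the most abundant, with 69.4, 57.7, 67.3 and 81.1 CPM in OVX Xmo, 68.6, 66.4, 68.9 and 80.7 in OVX saline, 70.8, 66.6, 80.7 and 64.7 in sham Xmo, and 73.8, 75.0 and 77.9 in sham saline. No group stood apart for Ccnd2, nor for Ccnd1 (29.6 ± 2.82, 29.3 ± 2.06, 29.1 ± 1.76 and 29.7 ± 5.09 CPM in the same order). Ccne1, which starts S phase, averaged 10.1 ± 1.08 CPM in OVX Xmo and 8.6 ± 0.193 in sham saline, and Ccna2, the cyclin of S phase and G2 that is counted here among the 23 mitosis members, 3.03 ± 1.19 and 4.36 ± 0.286.

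None of the 6 progenitor and neuron members passed with edgeR in any comparison. Neurod1, which drives progenitors to become granule neurons, had 23.4, 25.3, 17.9 and 26.9 CPM in OVX Xmo, 26.4, 22.6, 20.4 and 22.1 in OVX saline, 21.8, 19.5, 23.8 and 20.1 in sham Xmo, and 26.2, 32.8 and 35.3 in sham saline. Sham saline 2 and 3 were the highest of all libraries, and sham saline 1 lay within the range of both OVX groups and above sham Xmo. Its log2 fold change was -0.43 (SE 0.14) in OVX Xmo, -0.46 (SE 0.14) in OVX saline and -0.56 (SE 0.14) in sham Xmo against sham saline, with edgeR adjusted p of 0.13, 0.0665 and 0.0582. DESeq2 called the difference in OVX saline (adjusted p = 0.0293) and in sham Xmo (adjusted p = 0.00913). Relative to the median gene, TPM gave -0.42, -0.46 and -0.57 for these comparisons, close to the values from counts. TPM as deposited, without taking off the shift of the median gene, gave positive values in both OVX groups (0.18 in OVX Xmo and 0.15 in OVX saline). Dcx ranged over 15.4 to 33.3 CPM in OVX Xmo, 23.1 to 31.4 in OVX saline, 27.0 to 41.6 in sham Xmo and 32.2 to 40.9 in sham saline, and Sox11, a factor of newborn neurons, over 12.7 to 20.8, 15.7 to 18.1, 12.2 to 22.5 and 15.8 to 20.4 in the same order.

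Igfbpl1, a secreted protein of immature neurons, had 2.86, 2.95, 2.36 and 2.91 CPM in OVX Xmo, 3.58, 3.8, 3.71 and 3.17 in OVX saline, 3.66, 3.26, 5.06 and 4.62 in sham Xmo, and 3.77, 1.01 and 2.54 in sham saline. OVX Xmo lay below OVX saline and below sham Xmo without overlap, while sham saline was the most variable group, with its lowest library at 1.01 CPM. Sham Xmo was above sham saline by 0.75 (SE 0.30) on the log2 scale, which did not pass (edgeR adjusted p = 0.198). Eomes averaged 0.753 ± 0.166 CPM in OVX Xmo, 0.962 ± 0.405 in OVX saline, 1.42 ± 0.601 in sham Xmo and 0.695 ± 0.232 in sham saline. Sham Xmo held the highest Eomes library (2.0 CPM) but also one at 0.584, so the groups overlapped. Nes, the intermediate filament of progenitors and of vessel cells, was nearly level, with 6.59 ± 0.821, 6.61 ± 1.04, 6.58 ± 0.239 and 7.24 ± 0.908 CPM in the same group order.

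Other genes of the same processes were read from lists. In OVX Xmo against OVX saline 49.1% of all genes lay below 0, and in OVX Xmo against sham Xmo 52.8%. In OVX saline against sham saline 3.65% of all genes rose and 6.24% passed in either direction. The counts of each list stand against these shares. Of 56 other mitosis genes tested, none passed in any comparison with edgeR, and 37 lay below 0 in OVX Xmo against OVX saline (median -0.12) and 49 in OVX Xmo against sham Xmo (median -0.25). The most abundant of them were Pttg1, which encodes securin (18.9 ± 6.52 CPM in OVX Xmo, 15.6 ± 3.06 in OVX saline, 22.1 ± 5.01 in sham Xmo and 22.3 ± 1.58 in sham saline), and Hjurp, the chaperone of Cenpa (65.8 ± 11.5, 63.9 ± 3.36, 69.2 ± 16.1 and 64.4 ± 2.03 in the same order). Of 50 other replication genes, 2 rose in OVX saline against sham saline: Rfc2, a subunit of the clamp loader (log2 fold change 0.47, edgeR adjusted p = 0.0236), and Tk1, thymidine kinase (1.23, edgeR adjusted p = 0.0377), a share near that of all genes. Rfc2 also rose in sham Xmo (0.46, edgeR adjusted p = 0.0447). Of 29 cell cycle brakes and G1 regulators, Ccne2, a partner of Cdk2, fell in OVX saline (-1.02, edgeR adjusted p = 0.0365) and Cdkn2c, an inhibitor of Cdk4 and Cdk6, rose (0.88, edgeR adjusted p = 0.0444). Of 21 neural stem cell and radial glia genes, the transcription factors Sox1 (-0.62, edgeR adjusted p = 0.0314) and Emx2 (-0.44, edgeR adjusted p = 0.0295) fell in OVX saline.

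Among 26 further genes of progenitors and immature neurons, the tubulin Tubb2b rose in OVX saline (log2 fold change 0.50, edgeR adjusted p = 0.0468), while the kinase Camk4 (-0.52, edgeR adjusted p = 0.0236) and the RNA-binding protein Elavl4 (-1.17, edgeR adjusted p = 0.0286) fell. In that list, 18 of 26 lay above 0 in OVX Xmo against OVX saline (median 0.13) and 20 in OVX Xmo against sham Xmo (median 0.20). Of 12 mature granule cell genes, 11 lay below 0 in both of these comparisons (medians -0.29 and -0.17), and Maml2, a Notch coactivator, passed in the interaction (-0.81, edgeR adjusted p = 0.041). The same list held 2 genes that rose in OVX saline, Il16 (0.48, edgeR adjusted p = 0.039) and Rasl10a (0.70, edgeR adjusted p = 0.0417). Its summed level was 465.8 to 609.4 CPM in OVX Xmo, 584.4 to 673.7 in OVX saline, 530.2 to 632.7 in sham Xmo and 558.6 to 577.1 in sham saline, and its part in the levels of the members was not tested. Oligodendrocyte precursors, the other cycling cells, gave overlapping sums over 14 genes of 399.5 to 475.9 CPM in OVX Xmo, 374.3 to 477.4 in OVX saline, 363.5 to 455.5 in sham Xmo and 375.4 to 423.2 in sham saline, and none of the 14 passed in any comparison. Their most abundant genes were the transcription factors Olig1 (mean 67.7 TPM over all libraries) and Sox10 (26.7 TPM).

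Markers of other cells were summed in the same way, and their part in the levels of the members was not tested. Endothelial genes (9 genes) summed to 131.5 to 145.9 CPM in OVX Xmo, 116.3 to 134.3 in OVX saline, 122 to 161.9 in sham Xmo and 160.8 to 234.8 in sham saline. In OVX saline Flt1 (log2 fold change -0.54, edgeR adjusted p = 0.0265), Sox17 (-1.20, edgeR adjusted p = 0.0165) and Ly6c1 (-1.44, edgeR adjusted p = 0.03) fell, and in sham Xmo Flt1 fell (-0.55, edgeR adjusted p = 0.0418). Neutrophil genes, 6 of 11 tested, differed most from sham saline, where they summed to 9.11, 150 and 17.6 CPM in libraries 1, 2 and 3. Lcn2 averaged 37.19 ± 53.15 CPM there (SD), so the size of its difference rests largely on sham saline 2. Against sham saline the log2 fold change of Lcn2 was -5.30 (edgeR adjusted p = 0.0316) in OVX Xmo, -7.79 (edgeR adjusted p = 0.00876) in OVX saline and -5.54 (edgeR adjusted p = 0.0188) in sham Xmo. S100a9, Ngp and Retnlg were also lower in OVX saline than in sham saline, and S100a9 in sham Xmo. Of 11 microglia genes, Csf1r (0.33, edgeR adjusted p = 0.0417) and Tmem119 (0.64, edgeR adjusted p = 0.0294) rose in OVX saline, with sums of 348.1 to 451.5 CPM in OVX Xmo, 405.9 to 438.8 in OVX saline, 381.1 to 463 in sham Xmo and 333 to 437.2 in sham saline. None of the genes of the meninges, the thalamus and habenula, red blood cells, the subventricular zone, the choroid plexus or ependymal cells passed in any comparison. Sums of the genes listed for the subventricular zone, the other neurogenic region of the brain, were 106.4 to 266.4 CPM in OVX Xmo, 117.2 to 152.5 in OVX saline, 138.1 to 166.3 in sham Xmo and 150.3 to 249.9 in sham saline. Etv1 alone averaged 132.9 CPM of a mean sum of 183.6 in OVX Xmo and 160.4 of 212.7 in sham saline. These sums thus mostly follow 1 gene and do not measure subventricular tissue. The most abundant genes of these lists, as mean TPM over all libraries, were Dcn (37.2) and Igf2 (20.7) of the meninges, Prkcd (75.6) and Tcf7l2 (18.01) of the thalamus, Hbb-bs (1733) and Hba-a2 (991.4) of red blood cells, Etv1 (56.7) and Dlx1 (12.9) of the subventricular zone, Ttr (1624) and Folr1 (14.99) of the choroid plexus, and Rarres2 (17.3) and Ccdc153 (10.3) of ependymal cells. Meningeal genes summed to 69.8 to 214.1 CPM in OVX Xmo, 59.2 to 125.8 in OVX saline, 87.7 to 216.3 in sham Xmo and 110.2 to 184.4 in sham saline, and red blood cell genes to 760.8 to 1852, 812 to 1257, 503.5 to 4918 and 397.4 to 2451 in the same order. Thalamic genes varied within each group, with 61.3 to 544.2, 83.9 to 289.6, 76.5 to 333.6 and 98.8 to 369.9 CPM in the same order.

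The members whose levels followed Mki67 most closely over the 15 libraries were Kif11 (Pearson r = 0.603 of log2 CPM), Cdk1 (0.587) and Prc1 (0.574). The libraries share group and scaling, so these values describe the data and carry no test.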

How the data were processed

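RNA of mouse hippocampi, extracted with Trizol and made into libraries with an Illumina TruSeq kit per the labels' protocols, gave 15 mRNA libraries; miRNA libraries were not used here. The authors deposited 1 gene table with raw counts and TPM per library, per the file headers. The submitters' processing notes list build GRCm38.p6 with StringTie 1.3.3b, Bowtie2 2.3.2, Trimmomatic 0.36 and FastQC 0.11.2, and which tool made which column, and whether strand was used, are not given in the sources used here. A further 12 per-sample columns matched no sample and were not used.

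Counts were tested with edgeR 4.0.16 (R 4.3.3; limma 3.58.1) by the quasi-likelihood test on all 4 groups, after filterByExpr and TMM scaling, with Benjamini-Hochberg adjustment over 19969 genes and a threshold of 0.05. The interaction is the Xmo effect in OVX minus that in sham. DESeq2 1.42.0, RLE factors, no filter, no mitochondrial genes, a replicate block, only the groups compared, and leaving out each library were tried as alternatives; the deposited TPM scales were added after seeing the data. The script was tested on simulated data.

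The members and gene lists were chosen with earlier results of these data known. Values in every library are given for members past the test, the 5 with the smallest p in each comparison and the most abundant of each role; of each further list at most 4 genes past the test are named. Same-numbered libraries of different groups did not deviate together (correlations of -0.215 to 0.186), so the numbers were not taken as pairs. Depth was 20848661 to 39140593 counts per library, and a floor of 3 counts covers counting error only.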

Additional observations from a re-analysis of the deposited data

Results flagged for a closer look

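Of 117 levels of a member within a group of 4 libraries, 7 held a library whose gap to the nearest other was a large share of the range of the group; chance gives about 5% such levels. Nek2 stood at 1.151 CPM in OVX Xmo 2, against 0.7081 to 0.7819 in the other OVX Xmo libraries. Igfbpl1 stood at 2.357 CPM in OVX Xmo 3, below 2.858 to 2.947 in the others. Aurkb stood at 0.6508 CPM in OVX saline 1, against 0.1698 to 0.2276 in the others. In sham Xmo, library 1 was high for Bub1b (5.145 CPM, against 4.675 to 4.699) and for Cenpf (2.742 CPM, against 2.201 to 2.238). Cenpa stood low in sham Xmo 2, at 2.165 CPM against 2.909 to 3.017, and Top2a in sham Xmo 4, at 1.781 CPM against 3.163 to 3.324.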

How the results depend on the processing

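Counts of calls depended on the setting. In OVX saline against sham saline, 1246 genes passed, against 568 with no filter, 178 with a replicate block and 2322 with DESeq2; members numbered 1 (Nek2), against 0 with the replicate block and 2 with DESeq2 (Nek2 and Neurod1). In sham Xmo against sham saline, 302 genes passed, against 108 with no filter, 37 with the replicate block, 6 with only the groups compared and 1110 with DESeq2; the member Nek2 was lost (0 members) under the first 3 of these, and DESeq2 called Neurod1 and gave Nek2 no adjusted p. In OVX Xmo against sham saline, 237 genes passed, against 56, 2, 4 and 1118 under the same settings, and members were 0 under the first 3. In OVX Xmo against OVX saline 0 genes passed, against 1 with only the groups compared and 3 with DESeq2, and against sham Xmo 2, against 0 with the replicate block or only the groups compared and 76 with DESeq2. In the interaction 83 genes passed, against 20 with no filter, 11 with the replicate block and 852 with DESeq2, which called 2 members (Bub1b and Cenpa).

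Leaving out 1 library gave 80 (without sham saline 3) to 1706 (without OVX Xmo 4) genes and 0 to 3 members in OVX saline against sham saline, 14 (without sham saline 3) to 673 (without sham Xmo 1) and 0 to 2 in sham Xmo against sham saline, and 2 (without OVX Xmo 1 or 2) to 983 (without OVX Xmo 4) and 0 to 2 in OVX Xmo against sham saline. The ranges were 0 to 1 genes in OVX Xmo against OVX saline, 0 to 3 against sham Xmo and 6 to 302 in the interaction, with 0 members in each. Log2 values turned positive on deposited TPM without correction for the median gene: Neurod1 0.149 in OVX saline and 0.18 in OVX Xmo, and in OVX Xmo Prc1 0.36 (0.043 without mitochondrial genes in the total) and Cenpa 0.441 (0.085), all against sham saline. On that scale the median gene shifted too, and no member was tested. The causes of the other changes were not tested. Counts of a few reads per library limit Nek2, Bub1, Aurkb, Cdk1, Cdc20, Ccnb1 and Ccnb2.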
